A study of Mus musculus with 6 samples.

Results

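Map4k1 and its 4 paralogs Map4k2, Map4k3, Map4k4 and Map4k5 were followed through their microarray probes in whole testis of Gipr knockout and wild-type mice. The members were all non-control probes that carry 1 of these 5 gene names in the array files, 7 probes of 55681 in all: 1 for Map4k1, 2 for Map4k2, 1 for Map4k3, 2 for Map4k4 and 1 for Map4k5. No other probe on the array shared a transcript accession with them. Map4k1 entered because its own knockout-minus-wild-type difference stood out in these same arrays, so its values are a description and carry no test. The paralogs were taken by name.

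Testes came from 3 Gipr knockout mice (labelled GIPR KO) and 3 wild-type mice, all of strain C57BL/6 and 8 weeks old, with 1 single-colour Agilent array per animal. Gipr encodes the receptor for the gut hormone GIP. The sources used here do not give the targeting construct, the part of Gipr that was removed or the breeding history of the knockout line. Per the series design, the comparison asks how testis gene expression differs without this receptor.

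Map4k proteins are serine/threonine kinases of the germinal centre kinase group, relatives of yeast Ste20. They sit at the top of mitogen-activated protein kinase cascades: they act on MAP3 kinases, which act on the MAP2 kinases Map2k4 and Map2k7, which phosphorylate JNK. Map4k1, also called haematopoietic progenitor kinase, is best known from blood-forming cells and lymphocytes, where it phosphorylates adaptor proteins of the antigen receptors and dampens their signal. A whole testis is mostly germ cells, with Sertoli, Leydig and peritubular cells and a small population of macrophages and other leukocytes.

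Each array reads a gene through a 60-base oligonucleotide, and the 5 genes are told apart by these sequences. For 1 tested probe of each gene, 30 of the 60 bases are shown as the files give them, 5′ to 3′. AATAAA, the usual hexamer of polyadenylation signals, is in capitals where it occurs, and the window was then set around it. These windows are bases 25 to 54 for Map4k1 and 29 to 58 for Map4k5. The others are bases 1 to 30, so the stretches are not aligned with each other.
Map4k1 (A_52_P552589): accttatctcccAATAAActtgactttagt
Map4k2 (A_52_P204689): aacagatgagaccaggatcttccgagtact
Map4k3 (A_55_P2024175): gtgcacacctctgactctctttggtatatg
Map4k4 (A_51_P439876): aggagcctttcttgggagtgacggtgtgtc
Map4k5 (A_55_P2006634): caatatacaagtAATAAAatgttacgcaaa

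On both strands of the whole 60 bases, AATAAA was found on the given strand in the Map4k1 and Map4k5 probes and on the other strand in the second Map4k2 probe, A_52_P84234. Over all 55681 non-control probes it occurred on the given strand in 10.1% and on the other in 3.7%. The paralog probes were unlike the Map4k1 probe: the longest run of bases shared with it, on either strand, was 5 to 7 bases, and the best alignment without gaps matched 20 to 23 of 60 positions. The GC content of the Map4k1 probe was 41.7%, against a median of 43.3% over all probes and 21.7% to 55.0% in the paralog probes.

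Each member lies on its own chromosome, in build mm9 as the files give it. The Map4k1 probe (NM_008279) lies on the plus strand at chr7:29788230-29788289 and starts at position 2630 of the transcript. It is 10.05 Mb from the Gipr probe on the same chromosome. Map4k2 (NM_009006) is read at chr19:6353292-6353457, where the 60 bases span 166 bases of genome, and by the second probe (ENSMUST00000124556) at chr19:6355100-6355159. The Map4k3 probe (NM_001081357) lies on the minus strand at chr17:80979972-80980031, and the Map4k5 probe (NM_201519) on the minus strand at chr12:70904746-70904805. Map4k4 (NM_008696) is read at chr1:40081597-40081656 and chr1:40082906-40082965. Exon and UTR boundaries on mm9 were not used here.

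The arrays were alike in quality, with 70.6% to 76.0% of non-control spots well above background as the scanner software defines it and 0 saturated. All 6 lie on 1 slide, with the knockout in its row 1 and the wild type in its row 2, which leaves genotype and row confounded: their effects cannot be told apart. Germ cell markers read as the labelled tissue would: all 5 of a short list (Ddx4, Sycp3, Acrv1, Tnp1, Prm1) were well above background on every array. The Gipr probe was lower in every knockout testis than in any wild-type one, at 155, 145 and 176 units of processed signal in knockout testes and 782, 820 and 1043 in wild-type testes. It passed the test at -2.48 ± 0.12 (log2, SE; limma adjusted p = 0.00311), and without knockout replicate 2 it was at -2.46 with an adjusted p of 0.0573. Whether this probe lies in the removed part is not stated in the labels.

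Map4k1 had by far the widest separation in the family. Its processed signal, a background-corrected spot brightness, was 703, 614 and 627 in knockout replicates 1, 2 and 3, against 5760, 5921 and 6306 in wild-type replicates 1, 2 and 3. After each array was scaled to its 75th percentile, these became -0.16, -0.23 and -0.29 on the log2 scale in knockout testes and 2.96, 3.00 and 3.03 in wild-type testes. Every knockout array lay far below every wild-type array, and the dimmest wild-type spot was 8.19 times as bright as the brightest knockout spot. On that log2 scale the mean was -0.23 ± 0.07 in knockout testes, against 3.00 ± 0.04 in wild-type testes (SD, 3 arrays each), a difference of -3.22 or 9.34-fold lower signal.

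The knockout signal was reduced but not lost. All 3 knockout spots were well above background, as were all 3 wild-type spots. In whole-tissue RNA, fewer cells of a type and less RNA per cell cannot be told apart, and a single probe cannot tell less transcript from a transcript with a changed end. Local background was 18 to 20 units in knockout testes and 17 to 19 in wild-type testes, and the coefficient of variation over a spot's pixels was 11.4% to 18.7% in knockout testes and 11.1% to 13.7% in wild-type testes. Within 2 rows and 2 columns of the Map4k1 spot, 16 other tested probes had differences from -0.21 to 0.61, with a median of 0.06. Of these 16, 0 passed the limma test at an adjusted p under 0.05, and 1 had an unadjusted p under 0.05. Over all tested probes these shares were 0.0463% and 7.66%.

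Replicates of Map4k1 were tight, with a pooled SD of 0.053 (log2), against a median of 0.119 over the 38884 tested probes. This was not particular to Map4k1: the probes of Map4k3, Map4k4 and Map4k5 had pooled SDs from 0.055 to 0.078. Among the tested probes the Map4k1 difference ranked 4 by size among falls and 6 by absolute size. For scale, the central 95% of all differences lay between -0.38 and 0.39. Since the gene was chosen on this contrast, nothing is read from that rank.

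**Figure D1:**
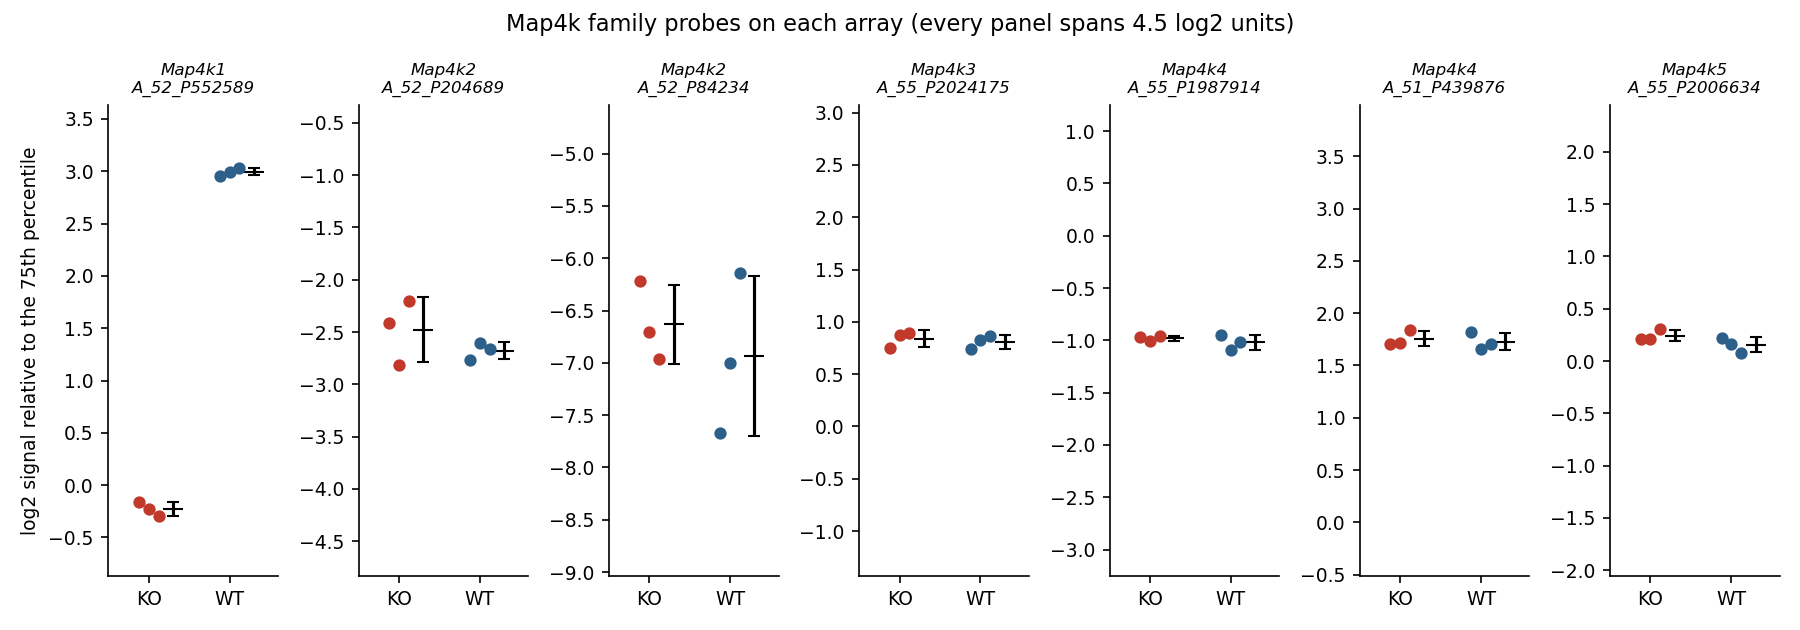
Log2 signal relative to the array's 75th percentile for each of the 7 Map4k probes, with 3 knockout arrays (KO, red) left of 3 wild-type arrays (WT, blue) and black bars for mean and SD; each panel has its own axis of equal span because levels of different probes are not comparable. The knockout arrays lie between -0.29 and -0.16 for Map4k1 and the wild-type arrays between 2.96 and 3.03, while in the other 6 panels the groups overlap.

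The paralogs did not share this difference. Of the 6 paralog probes, 5 were tested, and 0 of these 5 passed at an adjusted p under 0.05 in limma, and 0 had an unadjusted p under 0.05. Over all tested probes, 0.0463% passed in either direction and 7.66% had an unadjusted p under 0.05. In each of the 6 paralog probes the knockout and wild-type values overlapped, while over all tested probes 5.49% had groups without overlap as lower and 7.87% as higher. All 5 tested differences were small and positive in sign, from 0.03 to 0.20 on the log2 scale.

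Map4k2, the founding germinal centre kinase, is known for signalling in B cells and downstream of tumour necrosis factor. Probe A_52_P204689 read -2.42, -2.82 and -2.20 in knockout testes and -2.77, -2.61 and -2.66 in wild-type testes on the same log2 scale. Knockout replicate 2 was the lowest of the 6 arrays and knockout replicates 1 and 3 the highest. The difference was 0.20 ± 0.16 (log2, SE; limma adjusted p = 0.73), with a 95% interval from 0.884-fold to 1.5-fold. It was 0.37 without knockout replicate 2 and 0.06 without knockout replicate 3 (adjusted p = 0.268 and 0.946). This was the least precise paralog probe, with a pooled SD of 0.228. The second probe, A_52_P84234, cleared the background on 1 array of each genotype and was therefore not tested. Its values were -6.22, -6.71 and -6.97 in knockout testes and -7.67, -7.00 and -6.14 in wild-type testes.

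Map4k3, a kinase known from amino acid sensing and T cell activation, read 0.75, 0.88 and 0.90 in knockout testes and 0.74, 0.82 and 0.86 in wild-type testes. The groups lay on top of each other, at a difference of 0.03 ± 0.07 (log2, SE; limma adjusted p = 0.902). The 95% interval ran from 0.909-fold to 1.15-fold.

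Map4k4, broadly expressed and known for roles in cell migration and inflammation, was read by a pair of probes. A_51_P439876 gave 1.71, 1.72 and 1.84 in knockout testes and 1.82, 1.66 and 1.71 in wild-type testes. Its difference was 0.03 ± 0.07 (log2, SE; limma adjusted p = 0.919), with an interval from 0.902-fold to 1.15-fold. A_55_P1987914 gave -0.97, -1.004 and -0.96 in knockout testes and -0.95, -1.10 and -1.02 in wild-type testes, a difference of 0.04 ± 0.06 (log2, SE; adjusted p = 0.862) with an interval from 0.924-fold to 1.15-fold. The differences of the separate probes lay within each other's standard error.

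Map4k5, a close relative of Map4k3 in sequence, read 0.21, 0.21 and 0.31 in knockout testes and 0.22, 0.17 and 0.08 in wild-type testes. Wild-type replicate 1 lay above knockout replicates 1 and 2, so the groups overlapped. The difference was 0.09 ± 0.07 (log2, SE; limma adjusted p = 0.726), and its interval ran from 0.95-fold to 1.19-fold.

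The intervals bound what a change in the paralogs could have been. For Map4k3, Map4k4 and Map4k5 they leave room for at most a 1.19-fold higher or a 0.902-fold level in the knockout, and for Map4k2 for at most 1.5-fold higher. None comes near the size of the Map4k1 difference, although a missed threshold does not show equal levels. Set against the mean of the 5 tested paralog probes on the same array, Map4k1 was at -0.02, -0.03 and -0.27 in knockout testes and at 3.15, 3.21 and 3.24 in wild-type testes (log2 difference). These differences do not depend on the scaling to the 75th percentile, but the genotypes are still compared between arrays. Knockout replicate 3, the lowest for Map4k1, was the highest for the paralog mean.

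The genes that work around the Map4k kinases were described through 4 lists, each gene by its brightest tested probe. Of the 26933 genes so represented, 0.0557% passed in limma, 0.052% as lower and 0.00371% as higher, and the median difference was 0.002 (log2). By sign, 49.2% of these genes were lower. An unadjusted p under 0.05 was reached by 3.45% as lower and by 3.49% as higher. Groups without overlap were found for 5.94% of genes as lower and 7.1% as higher.

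Other germinal centre and Ste20-like kinases gave no calls. Of 19 listed and tested, 0 passed, 4 were lower and 15 higher in sign, and the median difference was 0.07 (log2). These signs are those of the brightest probes: of 7 members with several tested probes, 5 had probes of opposite sign. Stk26 of the Mst group was the only member with an unadjusted p under 0.05, at -0.25 ± 0.08 (log2, SE; limma adjusted p = 0.633), but its second probe differed by 0.61 in the opposite direction. Mink1, the closest relative of Map4k4 with Tnik, was 0.18 ± 0.08 (adjusted p = 0.652). The next by p were Taok2 at 0.15 and Stk10, a lymphocyte-oriented kinase, at 0.11 (adjusted p = 0.697 and 0.709). Groups without overlap were seen for 1 member as lower and 2 as higher.

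MAP3 kinases, the layer directly below Map4k proteins, likewise held 0 calls among 14 tested members. In sign, 5 were lower and 9 higher, with a median of 0.08 (log2), and 0 had an unadjusted p under 0.05. Map3k1, a main activator of the JNK pathway, read 0.64, 0.56 and 0.77 in knockout testes and 0.53, 0.43 and 0.50 in wild-type testes. These groups did not overlap, but the difference of 0.17 ± 0.08 did not pass (log2, SE; limma adjusted p = 0.652). Map3k20 (0.22), Map3k3 (0.16) and Map3k11 (0.10), the last a mixed-lineage kinase described as a partner of Map4k1, had adjusted p from 0.652 to 0.678. Groups without overlap were seen for 0 members as lower and 3 as higher (Map3k1, Map3k3 and Map3k11), against 5.94% and 7.1% of all genes so represented.

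JNK itself, its activators, scaffolds, targets and phosphatases held 0 calls among 22 tested of 24 listed genes. Signs were lower for 8 and higher for 14, and the median was 0.05 (log2). Tab2, an adaptor of the kinase Map3k7, was the only member with an unadjusted p under 0.05. It read 0.41, 0.40 and 0.42 in knockout testes and 0.29, 0.28 and 0.25 in wild-type testes, a difference of 0.14 ± 0.05 (log2, SE; limma adjusted p = 0.642). The JNK scaffolds Mapk8ip3, Spag9 and Mapk8ip2 differed by 0.13, 0.11 and 0.14 (adjusted p = 0.675, 0.679 and 0.705). The listed JNK targets Junb and Fos were not well above background on all arrays of either genotype and were not tested.

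Partners and regulators of Map4k1 in antigen receptor signalling also held 0 calls, among 24 tested of 25 genes. They divided evenly, 12 lower and 12 higher in sign, with a median of -0.003 (log2). Crkl, an adaptor that binds Map4k1, read -1.11, -1.18 and -0.999 in knockout testes and -1.33, -1.34 and -1.30 in wild-type testes, without overlap. Its difference was 0.23 ± 0.07 (log2, SE; limma adjusted p = 0.616). Crkl and Cbl were the 2 members with an unadjusted p under 0.05. The ubiquitin ligase gene Cbl was at 0.26 and the phospholipase gene Plcg2 at -0.16 (adjusted p = 0.642 and 0.652). In this list 1 member was without overlap as lower and 2 as higher, against 5.94% and 7.1% of all genes so represented. Lcp2, the T cell adaptor that Map4k1 phosphorylates, was not well above background on any array with either of its probes.

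**Figure D2:**
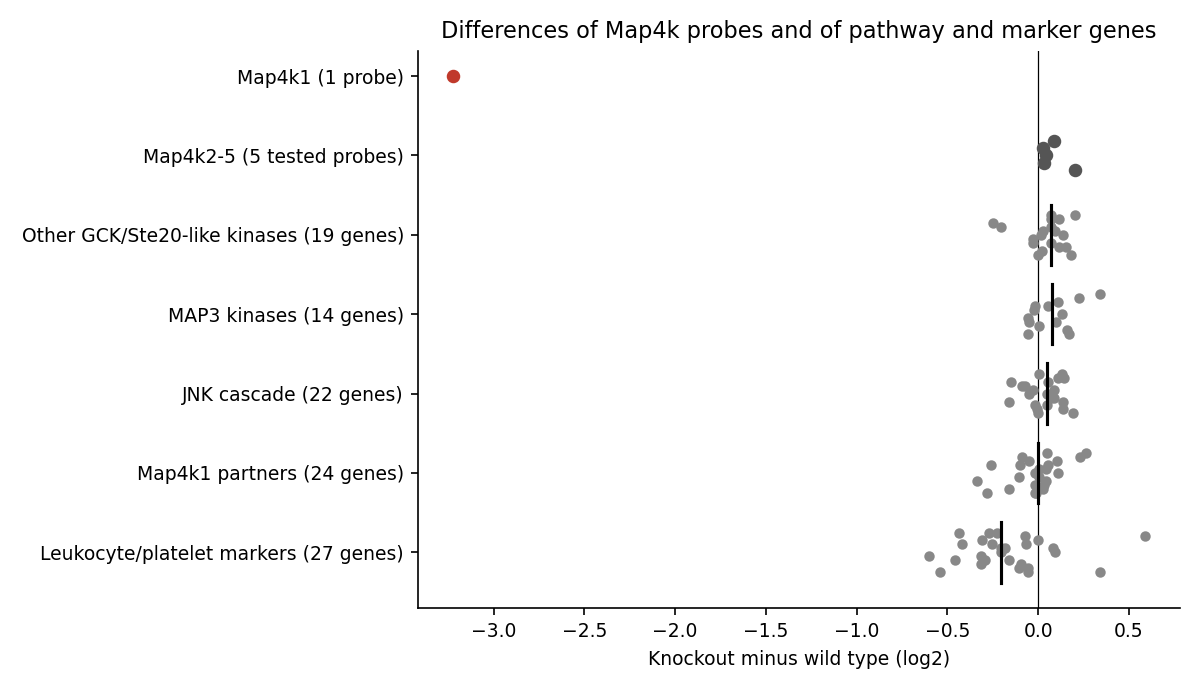
Knockout-minus-wild-type difference (log2, horizontal axis) of the Map4k1 probe, the 5 tested paralog probes and the tested genes of 4 pathway lists and a leukocyte list, 1 point per probe or gene, with vertical bars at list medians. Map4k1 sits at -3.22, while the tested paralogs lie between 0.03 and 0.20 and every listed gene lies between -0.60 and 0.59.

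Because Map4k1 is best known from blood-forming cells, leukocyte and platelet markers were read beside it. Of 27 tested markers of 32 listed, 23 were lower and 4 higher in sign. This is 85.2% lower, against 49.2% of all genes so represented. Among the 27 markers 0 passed, and the median was -0.205 (log2), with single markers from -0.60 to 0.59. An unadjusted p under 0.05 was reached by 1, Ms4a1 of B cells, which was higher at 0.34 (limma adjusted p = 0.628). The largest downward difference, Cd52 at -0.60, was well short of the -3.22 of Map4k1 and rested on wild-type replicate 1, at 1.06 against -1.07 to -0.67 on the other 5 arrays. Ptprc, the pan-leukocyte surface phosphatase, read -2.96, -2.63 and -2.98 in knockout testes and -2.38, -2.62 and -2.75 in wild-type testes. That gave -0.27 ± 0.14 (log2, SE; limma adjusted p = 0.66), with groups that overlapped. The complement gene C1qa of macrophages was at -0.26 and the probe named for Cd79a of B cells at -0.42 (adjusted p = 0.675 for each). The array annotation places that Cd79a probe on chromosome 12, and whether it reads this gene was not tested.

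The marker levels overlapped between genotypes when summed. Summed over the 27 markers, linear signal relative to the 75th percentile was 45.5 to 54.0 in knockout testes and 47.6 to 53.5 in wild-type testes. A single probe, that of the myeloid integrin gene Itgam, made up 29.4 to 34.9 of these units in knockout testes and 28.6 to 31.9 in wild-type testes. The other 26 markers, summed apart after the values were seen, gave 19.1, 19.4 and 16.1 in knockout testes and 24.2, 19.0 and 19.5 in wild-type testes. These ranges overlap as well, with the highest sum in wild-type replicate 1 and the lowest in knockout replicate 3. Relative to each marker's mean over the 6 arrays, the median marker was at 0.02, -0.04 and -0.29 in knockout replicates 1, 2 and 3 and at 0.31, -0.08 and -0.03 in wild-type replicates 1, 2 and 3. Map4k1 ranged over 0.13 log2 units among the knockout arrays and 0.07 among the wild-type arrays. Without wild-type replicate 1 the markers divided into 17 lower and 10 higher with a median of -0.04, while Map4k1 was at -3.19 to -3.26 whichever array was left out. The markers Cd3g, Cd8a, Ncr1 and Spi1 were not well above background on any array and Trac was matched to no probe. The listed T cell markers Cd3d, Cd247, Cd3e and Cd4 were on all 6 and differed by -0.205, -0.075, -0.06 and -0.001. Of the listed testis markers, 5 germ cell genes had a median difference of 0.007 and 5 tested somatic cell genes one of -0.016, with 0 calls in either. An unadjusted p under 0.05 was reached by 1, the Sertoli cell gene Rhox8 at 0.24 (limma adjusted p = 0.612). The second Rhox8 probe differed by 0.01. The largest differences among the somatic genes were those of the Leydig cell steroid genes Star at -0.73 ± 0.61 and Cyp17a1 at -0.44 ± 0.25 (log2, SE; adjusted p = 0.745 and 0.685). Star read 0.64, 0.03 and -1.68 in knockout testes and -0.21, 0.63 and 0.76 in wild-type testes, and its second probe differed by -0.54. Knockout replicate 3 was the lowest array for both genes. The part of leukocytes in the Map4k1 difference was not tested.

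**Figure D3:**
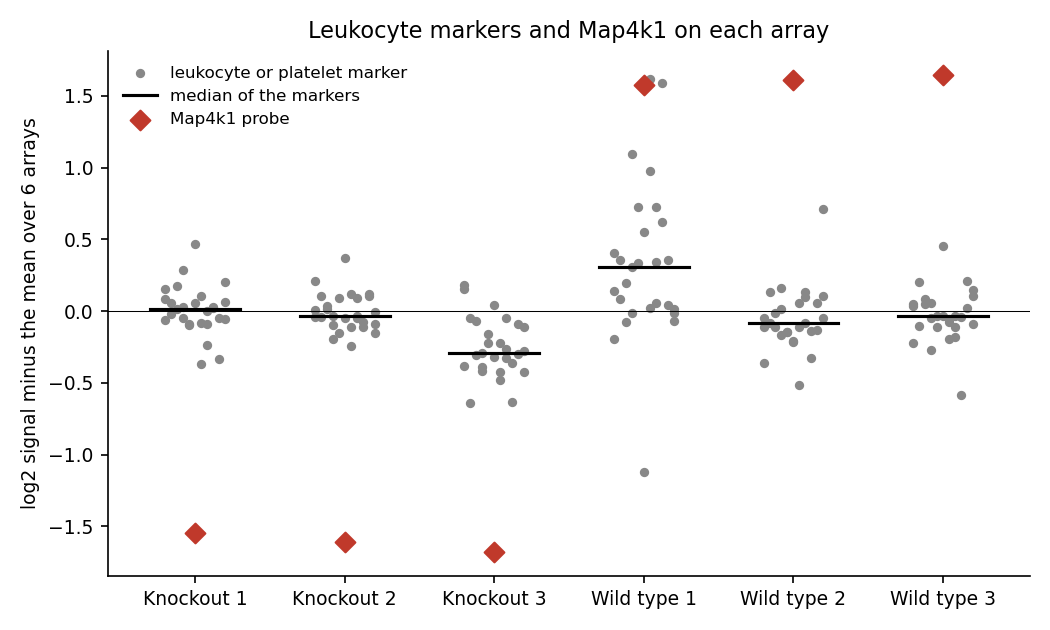
Log2 signal minus the gene's mean over the 6 arrays (vertical axis) for 27 leukocyte and platelet markers (grey points, black bar at their median) and for Map4k1 (red diamonds), with 3 knockout arrays left of 3 wild-type arrays. The marker medians lie between -0.29 and 0.31, with the extremes in knockout replicate 3 and wild-type replicate 1, while Map4k1 separates the arrays by genotype.

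On chromosome 7, the genes nearest Map4k1 had differences of either sign, and a shared regional cause was not tested. The nearest was Ryr1, a calcium release channel of muscle, whose probe on the opposite strand lies 0.6 kb from the Map4k1 probe. It read -1.15, -1.22 and -1.25 in knockout testes and -1.45, -1.60 and -1.51 in wild-type testes. Every knockout array was higher, at 0.31 ± 0.07, but the difference did not pass (log2, SE; limma adjusted p = 0.484). The sign was thus opposite to that of Map4k1.

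Further neighbours on the lower-coordinate side were the translation factor gene Eif3k at -0.02 ± 0.06, the actin-binding Actn4 at 0.01 ± 0.07 and the galectin gene Lgals7 at 0.80 ± 0.10 (log2, SE; limma adjusted p = 0.945, 0.982 and 0.152). On the other side, Rasgrp4 was at -0.002 ± 0.11 and Fam98c at -0.51 ± 0.07 (adjusted p = 0.997 and 0.18). Lgals7 was -2.86, -2.97 and -2.96 in knockout testes and -3.55, -3.75 and -3.88 in wild-type testes, without overlap. For Fam98c the knockout values, 5.20 to 5.31, were all below the wild-type ones, 5.71 to 5.83. Eif3k, Actn4 and Rasgrp4 overlapped between genotypes.

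Within 1000 kb on either side of the Map4k1 probe, a distance chosen after values were seen, 107 other probes were tested. Of these, 3 passed as lower and 0 as higher, against 0.0411% and 0.00514% of all tested probes, and 13 had an unadjusted p under 0.05 as lower and 11 as higher. That makes 22.4% of the window in either direction, against 7.66% of all tested probes. The 3 were both probes of the zinc finger gene Zfp27, at -1.18 and -1.26, and the transcript 1110035H17Rik at -0.84 (log2; limma adjusted p = 0.0217, 0.0039 and 0.0449). The 1110035H17Rik call was lost whichever array was left out (adjusted p = 0.158 to 0.253), and the lesser Zfp27 call in every such case except without knockout replicate 3 (0.0397). The other Zfp27 call was lost without knockout replicate 1 or wild-type replicate 3 (0.0604 and 0.0534). Differences in the window ran from -1.26 to 1.09, against -3.22 for Map4k1. Since Map4k1 was chosen on this contrast, nothing is read from its place in the window.

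**Figure D4:**
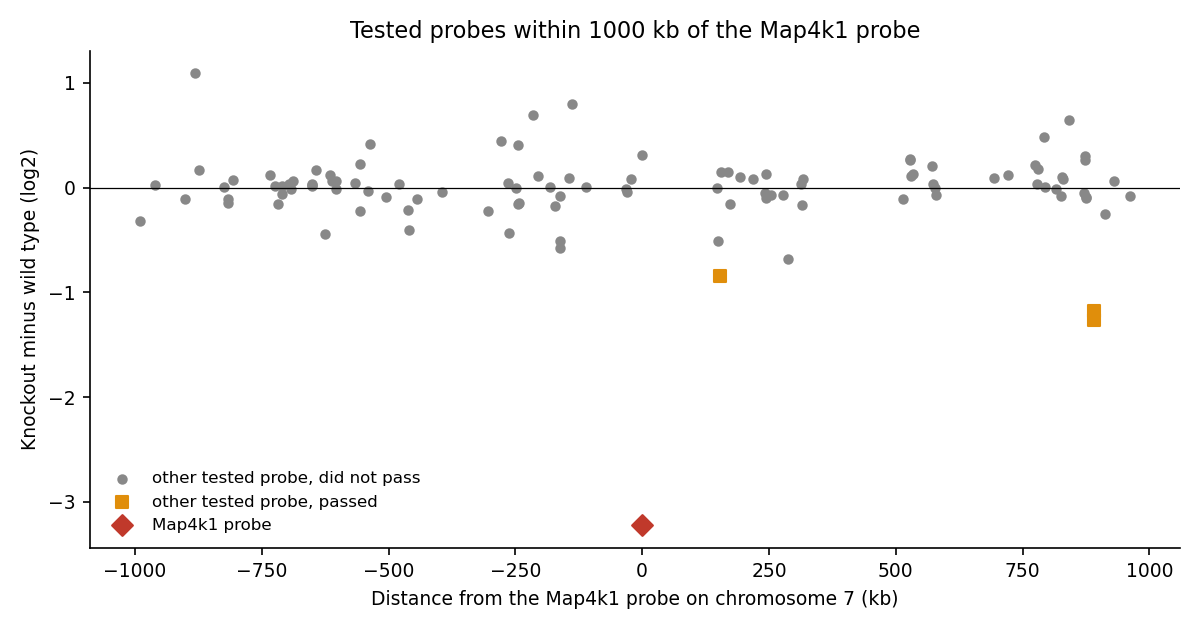
Knockout-minus-wild-type difference (log2, vertical axis) of 107 tested probes against their distance from the Map4k1 probe on chromosome 7 (kb), with the Map4k1 probe as a red diamond and the 3 other probes that passed as orange squares. The neighbours lie between -1.26 and 1.09 on both sides of 0, and Map4k1 lies at -3.22.

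The genes most like Map4k1 in pattern over the 6 arrays were sought by Pearson correlation among 16652 genes with a symbol, as a description without a test. The points share the arrays and the split by genotype. Highest, at r = 0.9984, was Mrps12, a mitochondrial ribosomal protein gene whose probe lies on chromosome 7 within 1000 kb of the Map4k1 probe. Mrps12 had log2 values from 2.77 to 2.80 in knockout testes and from 3.21 to 3.23 in wild-type testes. Its difference of -0.43 ± 0.05 was much smaller than that of Map4k1 and did not pass (log2, SE; limma adjusted p = 0.169). Psg18 (r = 0.9978) and Psg19 (r = 0.9971), pregnancy-specific glycoprotein genes, and the zinc finger gene Zfp296 (r = 0.9963) also lie on chromosome 7. Psg19 differed by -4.53 ± 0.11 (log2, SE; limma adjusted p = 6.94e-05), more than Map4k1, and by -2.41 with normexp background correction. Psg18 cleared the background on none of the 3 knockout arrays and entered the test only through its wild-type arrays, so no fold or p is given. Zfp296 passed at -1.26 (adjusted p = 0.00891), a call that held only without wild-type replicate 1 (0.0304) among the 6 fits that each left out an array. The remaining gene, Fry on chromosome 5 (r = 0.9969), differed by -0.13 ± 0.05 (adjusted p = 0.649).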

How the data were processed

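Total RNA of whole testis was labelled with Cy3 from 100 ng, per the labels' protocols, and hybridised to Agilent arrays of design 028005. The deposited intensity values were made with Agilent Feature Extraction 10.7.3.1, per the submitters' processing notes and the file headers: a background-subtracted, spatially detrended spot signal on a linear scale. The authors' value table holds the same signal times 1 factor per array (median 200 in each column), uncentred and not log-transformed, and served as an alternative.

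Outlier spots (117 to 149 per array) were left out, log2 was taken, spots of a probe were averaged and each array's 75th percentile was subtracted; 13 probes without a usable spot on some array were dropped. A probe was tested when well above background on all 3 arrays of a genotype (38884 probes). The genotype difference was tested two-sided with limma 3.58.1 under R 4.3.3, Benjamini-Hochberg over all tested probes, threshold 0.05; the fit was tested on simulated data. Genes were represented by their brightest tested probe. Symbols were updated through RefSeq (GRCm38.p6, names only). With 3 arrays a group the number of arrays limits the precision, and an exact permutation test of 1 probe cannot go below p = 0.1. Mice are per the series design; p-values measure the spread between these samples.

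Members and lists were chosen with earlier results of these data known. Named were all members, Gipr, in each list the 4 genes of lowest p, the 3 nearest genes on each side of Map4k1 and the 5 genes most correlated with it; 1 gene that this rule names is not reported here, and others were named after their values were seen. Alternatives were the replicate number as a block, normexp (offset 50), quantile and median scaling, other filters on dim probes, trend with robust eBayes, array weights and leaving out each array.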

Additional observations from a re-analysis of the deposited data

How the results depend on the processing

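Map4k1 was lower in the knockout under all 15 alternatives, at -3.09 with normexp, the furthest from -3.22, and at -3.26 to -3.19 when 1 array was left out. Paralog probes gave 0 calls in every alternative, as did all lists, and the replicate block changed none of these counts. Signs of differences near 0 turned for Map4k3 (-0.0053 with array weights, -0.0016 to 0.079 leaving out an array), Map4k4 A_51_P439876 (-0.014 to 0.074), Eif3k (0.016 with quantile scaling, -0.039 to 0.015), Actn4 (-0.0097 with normexp, -0.0027 with the authors' table, -0.027 to 0.055), Rasgrp4 (0.048 with array weights, -0.088 to 0.054) and Prm1 (-0.057 to 0.0099); the cause was not tested. The replicate numbers did not pair the arrays (correlations of same-numbered deviations 0.058, -0.024 and -0.003). Over all probes, 16 passed as lower and 2 as higher. With the replicate block 5 passed as lower and 1 as higher; without a filter 6 and 1. Higher calls numbered 7 with normexp, 8 with array weights, 11 with trend and robust, 1 with median scaling or the authors' table, and 0 with quantile scaling or probes above background on all 6 arrays. Leaving out an array gave 5 to 11 lower and 0 to 0 higher calls (5 without knockout replicate 1 or 2 or wild-type replicate 3, 7 without wild-type replicate 2). Gipr had an adjusted p of 0.0573 without knockout replicate 2, and Fam98c and Mrps12 passed with normexp (0.017 and 0.0471) and with trend and robust (0.00532 and 0.00692). The 3 calls near Map4k1 were lost with the replicate block (adjusted p = 0.185 to 0.34), as was Zfp296 (0.238). Without a filter on dim probes, 1110035H17Rik (0.148), the Zfp27 probe A_66_P101631 (0.104) and Zfp296 (0.053) no longer passed. With normexp the Zfp27 probes were at -0.52 and -0.48. Map4k2 ranged from 0.064 to 0.371 leaving out an array. The leukocyte median ran from -0.255 to -0.042, reaching -0.042 without wild-type replicate 1; omitting knockout replicate 3 gave -0.076. A single probe per array and 3 arrays a genotype limit what Map4k1 can show.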
